A study of Capra hircus with 20 samples.

Results

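The cytosolic ribosomal protein genes are the genes for the proteins of the ribosomes that translate nuclear mRNAs, as opposed to those of the mitochondria. They were taken as every gene whose symbol begins with RPL or RPS followed by a number, together with RPSA, RPLP0, RPLP1, RPLP2 and FAU, without pseudogenes and without the 11 RPS6K and RPS19BP genes, which encode kinases and a binding protein. This gave 81 of 21071 genes, of which 39 encode large subunit proteins, 32 small subunit proteins, 3 proteins of the stalk (RPLP0, RPLP1 and RPLP2) and 7 are paralogs of other members (RPL3L, RPL7L1, RPL10L, RPL22L1, RPL26L1, RPL36AL and RPS27L). RPL17, RPL34, RPL37A and RPL41 were not analysed here.

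Expression was measured in the hypothalamus of 20 healthy female Jining grey goats (Capra hircus), 5 for each of the ages of 1 day (D1), 60 days (M2), 120 days (M4) and 180 days (M6). The goats were raised under the same feeding and management, and each goat gave 1 strand-specific library of its hypothalamic tissue after removal of rRNA. The series follows the tissue towards sexual maturity, so each comparison asks which genes differ between ages. Values are FPKM, that is fragments mapped to a gene scaled to its transcript length and to the size of the library, and the reads behind each value are unknown, so the precision rests on the spread between the 5 goats of a stage.

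Every ribosome holds 1 copy of nearly all of these proteins, with more than 1 of the acidic stalk proteins P1 and P2, which recruit the elongation factors. The mRNAs of ribosomal proteins begin with a pyrimidine tract (the TOP motif), through which mTOR signalling and LARP1 set their translation, and they are among the most abundant mRNAs of neurons and glia. A few members have paralogs whose proteins can take the place of the parent protein or are used in particular tissues, such as RPL3L in muscle and RPL10L in testis.

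The libraries differed in cell make-up and in a few dominant transcripts. Summed FPKM of 4 neuron markers was 62.4 in M6 replicate 3 and 153 in M2 replicate 1, against 413 to 2516 in the other 18 libraries. Of 15 markers of the hypothalamus, AVP, POMC and NPY reached 1 FPKM in 10 or more libraries, GHRH and KISS1 reached it in none, and the summed level of the 15 ranged from 2.02 (M4 replicate 3) to 920 FPKM (M6 replicate 5), so the markers of the labelled tissue were near absent from several libraries. One gene, KLHDC1, held 23.9% of all FPKM in M2 replicate 3 and 9.83% in M6 replicate 3. In bulk tissue, fewer cells of a type and less RNA per cell cannot be told apart.

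Ribosomal protein genes were expressed at high levels at every age. The median over the 81 genes of their mean FPKM was 301, against 3.65 over the 19281 genes above 0 in some library. Of the 81 genes, 69 had a mean of at least 100 FPKM, a level reached by 365 genes in all, and 40 were among the 100 genes with the highest means.

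RPL19, a large subunit protein gene on chromosome 19 (39340519 to 39344251, ARS1.2), was the highest member and ranked 14 among all genes, with a mean of 1081 FPKM. Its FPKM was 744, 838, 997, 1328 and 1396 at D1 and 1336, 859.5, 741, 1309.8 and 1109.7 at M2. At M4 it was 857, 872, 595, 1054 and 1379, and at M6 it was 1217, 1314, 1669, 1004 and 1003. The 4 stages overlapped throughout, and the lowest and highest libraries were M4 replicate 3 and M6 replicate 3. RPL23 and RPL31, also of the large subunit, followed with means of 924 and 832 FPKM.

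Within the large subunit, mean FPKM ranged from 21.4 to 1081 (median 361), and within the small subunit from 29.6 to 666 (median 340.3). The stalk genes were uneven. RPLP1 had a mean of 781 FPKM, RPLP0 189.7 and RPLP2 134. The 7 paralogs ranged from 0.00505 to 257 FPKM. Summed over the members, large subunit genes held 55.7% of the FPKM, small subunit genes 38.7%, stalk genes 4.19% and paralogs 1.41%, and the 10 highest genes held 28.2%. Although the proteins are present in near equal numbers in the ribosome, their mRNA levels per length spanned over an order of magnitude in either subunit. Where a gene has a near-identical copy elsewhere in the genome, as is common in this family, its level may be shared with that copy and is less certain.

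The genes moved together from goat to goat. The plot of each gene across the libraries shows most of the family high in M6 replicate 3 and low in M4 replicate 3, in every block of subunits.

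**Figure D1:**
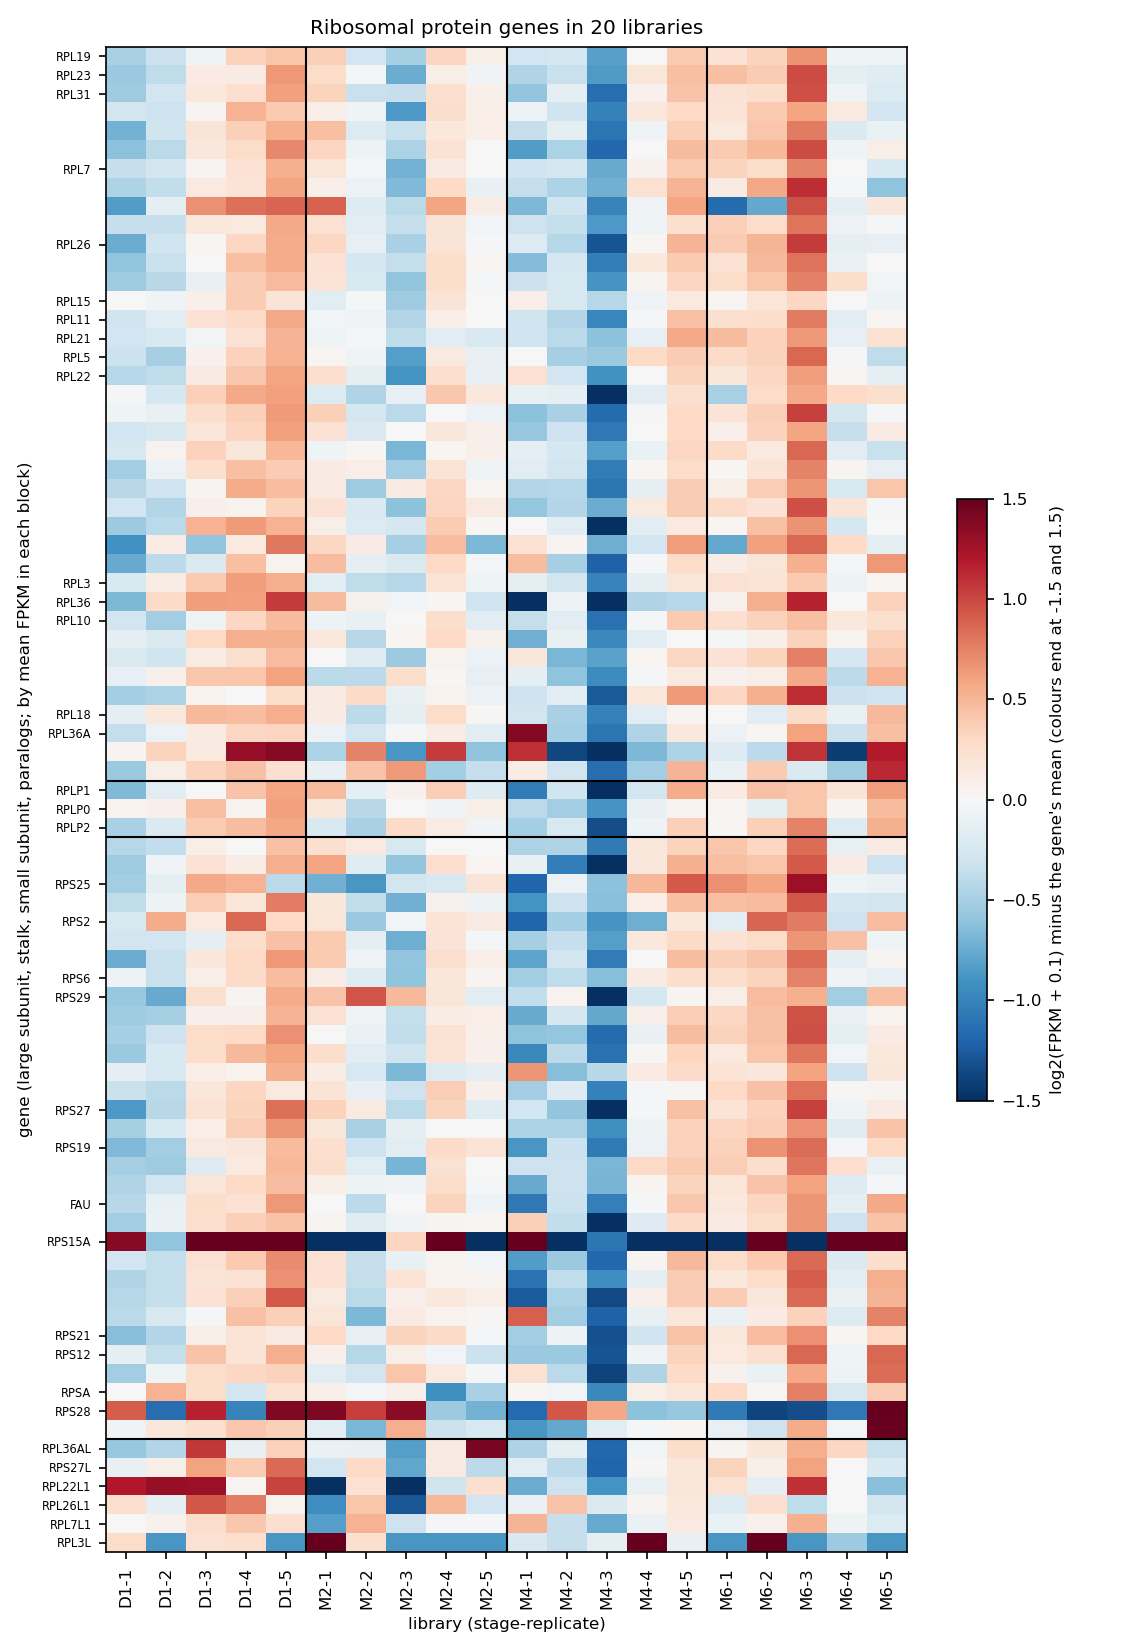
Heat map of the 80 tested ribosomal protein genes (rows, in blocks of large subunit, stalk, small subunit and paralog genes, each sorted by mean FPKM, with names for the genes described in the text) in the 20 libraries (columns, stage and replicate). Colour gives log2(FPKM + 0.1) minus the gene's mean, with red above and blue below; 51 genes were highest in M6 replicate 3 and 60 were lowest in M4 replicate 3, while RPS15A, RPS28, RPL22L1 and RPL3L broke the common pattern.

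Of the 80 genes that could be tested, 51 had their highest value in M6 replicate 3, and 60 had their lowest in M4 replicate 3. The median FPKM of the members was 149.7 in M4 replicate 3 and 524 in M6 replicate 3, and 223 to 418 in the other 18 libraries. On the log2 scale the median of the members ranged by 1.81 over the libraries and by 0.56 over the 4 stage means. Its SD among the goats of 1 stage was 0.38. In the highest library the neuron markers and KLHDC1 also stood apart, with the values given above, and in the lowest library the summed hypothalamus markers were the lowest of all. The part of these differences in the ribosomal protein values was not tested.

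For each gene, log2(FPKM + 0.1) was correlated over the 20 libraries with the median of the other members. The median of Pearson's r was 0.85 over the 80 members and -0.01 over the other 16691 genes tested, and 53 members (66.2%) but only 28 other genes (0.168%) reached 0.8. After subtraction of the stage means the medians were 0.86 and -0.03, so the shared movement was seen within ages. These r values are descriptive, since the libraries share the make-up and scaling described above. RPL11, which with RPL5 binds MDM2 when ribosome assembly is disturbed, followed the family closely (r = 0.95). RPS6, the small subunit protein phosphorylated by S6 kinases, had 0.90, and RPL5 had 0.79.

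A few members did not follow the family. RPS28 (r = -0.24), RPL3L (-0.03), RPS15A (0.19), RPL26L1 (0.20) and RPL22L1 (0.37) had the lowest values among the tested genes, and 3 of these 5 are paralogs. Among genes outside the family, the 5 most alike were PFDN5 (r = 0.93), LOC102177819 (0.92), EEF1A1 (0.88), EEF1B2 (0.87) and SERF2 (0.87). PFDN5 encodes a prefoldin chaperone subunit, and EEF1A1 and EEF1B2 are translation elongation factors. RACK1, a protein of the small subunit that the symbol rule leaves out, had an r of 0.86 and a mean of 226 FPKM.

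The share of all FPKM taken by the 81 genes overlapped between the 4 ages. It was 6.05, 6.63, 8.06, 8.98 and 10.4% in the D1 libraries, and 9.73, 7.11, 5.63, 8.31 and 8.01% in those of M2. At M4 it was 6.43, 6.42, 4.89, 8.19 and 9.10%, and at M6 it was 9.01, 9.85, 11.4, 7.73 and 8.002%. Each age had libraries within the range of every other. The means were 8.03% ± 1.77 (D1), 7.76% ± 1.52 (M2), 7.005% ± 1.65 (M4) and 9.19% ± 1.48 (M6; SD, n = 5 each), so the difference of M6 from M4 exceeded the SD of either stage.

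**Figure D2:**
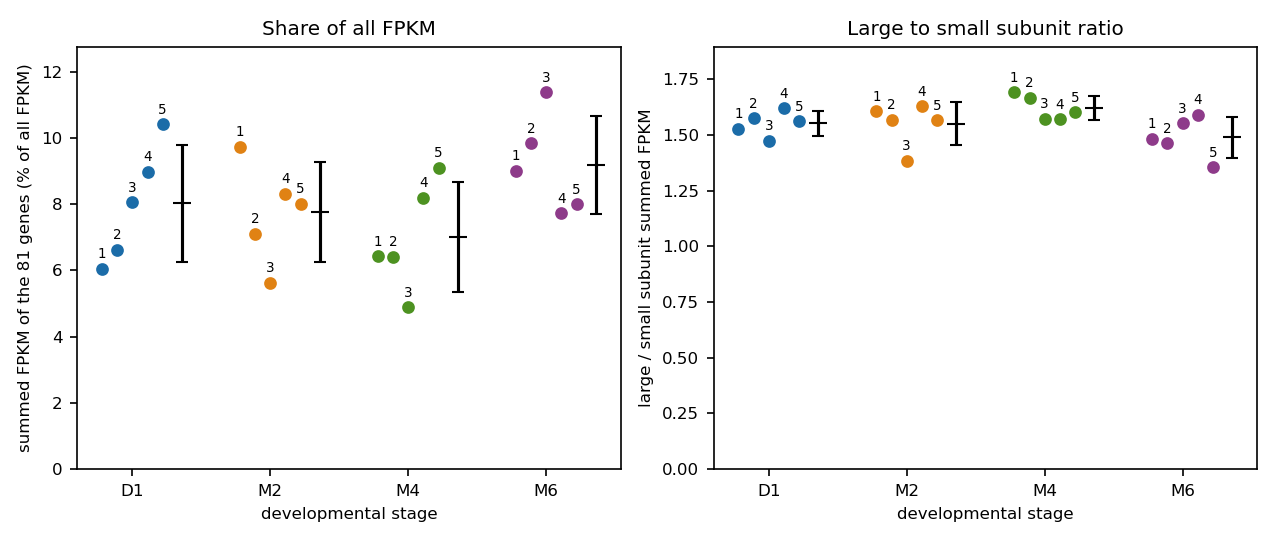
Left, summed FPKM of the 81 ribosomal protein genes as a percentage of all FPKM in each library; right, summed FPKM of the 39 large subunit and 3 stalk genes divided by that of the 32 small subunit genes. Points are libraries with their replicate number and bars give the mean ± SD of 5 goats; the share runs from 4.89% to 11.4% with overlapping stages, and the ratio from 1.36 to 1.69.

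The balance between the subunits varied less than their level. The ratio of the summed FPKM of large subunit and stalk genes to that of small subunit genes was 1.36 to 1.69 over the 20 libraries, a range within which the summed level itself differed between 12727 and 42954 FPKM. Its means were 1.55 ± 0.05, 1.55 ± 0.10, 1.62 ± 0.05 and 1.49 ± 0.09 (D1, M2, M4 and M6; SD, n = 5). The 2 lowest ratios were those of M6 replicate 5 (1.36) and M2 replicate 3 (1.38).

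Genes also differed in how steady they were between goats of 1 age. The median SD of log2(FPKM + 0.1) within stages was 0.44 over the tested members and 0.57 over all genes tested. Most members are far higher in level than most genes, and the SD was not compared between genes of like level. RPL15, a large subunit protein gene, was the steadiest (0.21), with FPKM between 294 and 551 in all 20 libraries. RPLP0 (0.28) and RPL18 (0.31) followed. RPS15A (1.87), RPL3L (1.24) and RPS28 (1.15) varied most.

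RPS15A and RPS28, both of the small subunit, differed widely among goats of the same age. RPS15A, on chromosome 25 (16275987 to 16281474), was 261, 67.3, 472, 534 and 692 FPKM at D1 and 20.5, 18.4, 127, 481 and 25.5 FPKM at M2. At M4 it was 348, 14.9, 47.9, 17.8 and 23.0 FPKM, and at M6 it was 30.6, 538, 28.8, 358 and 423 FPKM. It was below 50 FPKM in 9 libraries, above 250 FPKM in 9 and between these bounds, which were set after the values were seen, in 2 (67.3 FPKM at D1 and 127 FPKM at M2), so that the values had no clear gap. The lowest of D1 was 67.3 FPKM, not far above the 47.9 FPKM that was the highest of the 9 low values.

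RPS28, on chromosome 7 (93458752 to 93459904), was 143, 34.4, 169.6, 37.9 and 199.6 FPKM at D1 and 201, 157, 195, 52.1 and 46.6 FPKM at M2. At M4 it was 33.9, 146, 114, 49.5 and 51.3 FPKM, and at M6 it was 36.5, 29.2, 30.2, 36.3 and 274 FPKM. No library lay between 52.1 and 114 FPKM, so that 11 were low and 9 high, with both levels at every age. The part of near-identical copies, to which reads can be assigned, in these levels was not tested.

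**Figure D3:**
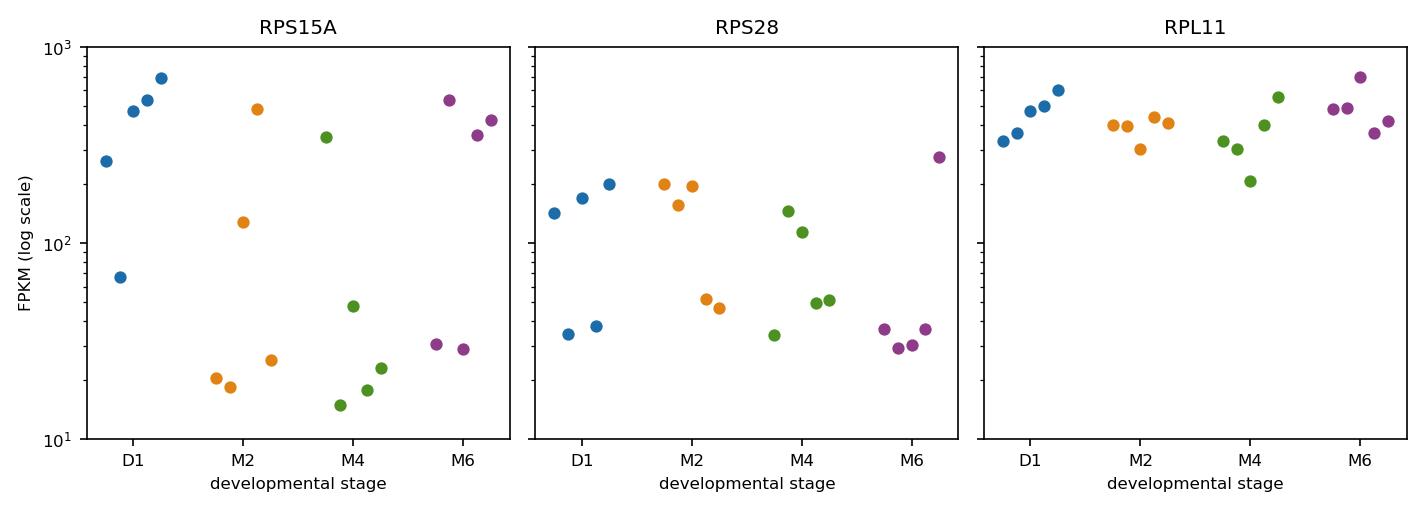
FPKM of RPS15A, RPS28 and, for comparison, RPL11 in the 5 libraries of each stage, on a log axis. RPS15A spans 14.9 to 692 FPKM, RPS28 29.2 to 274 FPKM with no library between 52.1 and 114 FPKM, and RPL11 208 to 703 FPKM.

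In M6 vs. M4, ribosomal protein genes were on balance higher at M6, but no single gene passed the test. The log2 fold change was positive for 77 of the 80 genes, against 53.9% of all 16771 genes tested, with a median of 0.52 against 0.04 over all genes. With limma and Benjamini-Hochberg adjustment, 0 members and 0 genes in all (0%) had an adjusted p under 0.05. At an unadjusted p under 0.05, 27 members were higher and 0 lower, against 3.99% of all genes higher and 2.88% lower. The 27 comprised 16 of the 32 small subunit genes, 8 of the 39 large subunit genes and all 3 stalk genes, but none of the 6 tested paralogs. Their smallest limma adjusted p was 0.70. Since the members moved together within stages (median r 0.86), these counts, here and in the comparisons below, are not counts of independent genes. They describe largely 1 shared movement, seen over 5 goats per stage.

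RPL36, a large subunit protein gene on chromosome 7 (91913895 to 91915409) that overlaps LONP1, had the largest log2 fold change here after RPS15A and the smallest p-value. Its FPKM was 53.6, 168, 59.9, 129.5 and 131 at M4 and 186, 259.6, 394, 178 and 226 at M6. Every M6 library lay above every M4 library, which held for no other member and for 0.459% of all genes. The log2 fold change was 1.28 (SE 0.34, unadjusted p = 0.00127, limma adjusted p = 0.70). RPS2, RPS12 and RPS19, of the small subunit, had the next smallest p-values, with log2 fold changes of 0.96 (SE 0.30), 0.84 (SE 0.27) and 0.83 (SE 0.29).

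Of the stalk genes, RPLP1 was 354, 594, 258, 608 and 1076 FPKM at M4 and 801, 997, 979, 836 and 1129 FPKM at M6, a log2 difference of 0.88 (SE 0.35, unadjusted p = 0.0195, limma adjusted p = 0.70). The M4 library with 1076 FPKM lay among those of M6. RPLP2 and RPLP0 differed by 0.65 (SE 0.29) and 0.54 (SE 0.21) on the log2 scale.

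This difference rested in part on the 2 libraries that stood at the ends of the range. The 27 genes became 8 without M4 replicate 3, 13 without M6 replicate 3 and 3 without both, with a median log2 fold change of 0.35, 0.41 and 0.24. Without M4 replicate 5, the highest library of its stage, the count was 50 and the median 0.66. With library quality weights the count was 3 and the median 0.33, and in a fit to the M4 and M6 libraries alone the count was 16. The median stayed above 0 under each of these, and the counts of called members stayed at 0. For counts at an unadjusted p under alternative fits, here and below, the share of all genes in the same fit is not given. Those counts are therefore not read against a background. Summed cell markers differed in mean between these stages too, but the sums can rest on single genes or libraries. Summed FPKM of the 4 neuron markers was 1194 ± 766 at M4 (617 to 2516) and 550 ± 284 at M6 (62.4 to 780; SD, n = 5), and that of the 4 astrocyte markers was 1900 ± 926 (799 to 3003) and 2591 ± 898 (1402 to 3834). That of the 15 hypothalamus markers was 108 ± 216 (2.02 to 495) and 366 ± 426 (6.72 to 920). The stages overlapped in each, and the part of these markers in the ribosomal protein values was not tested.

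**Figure D4:**
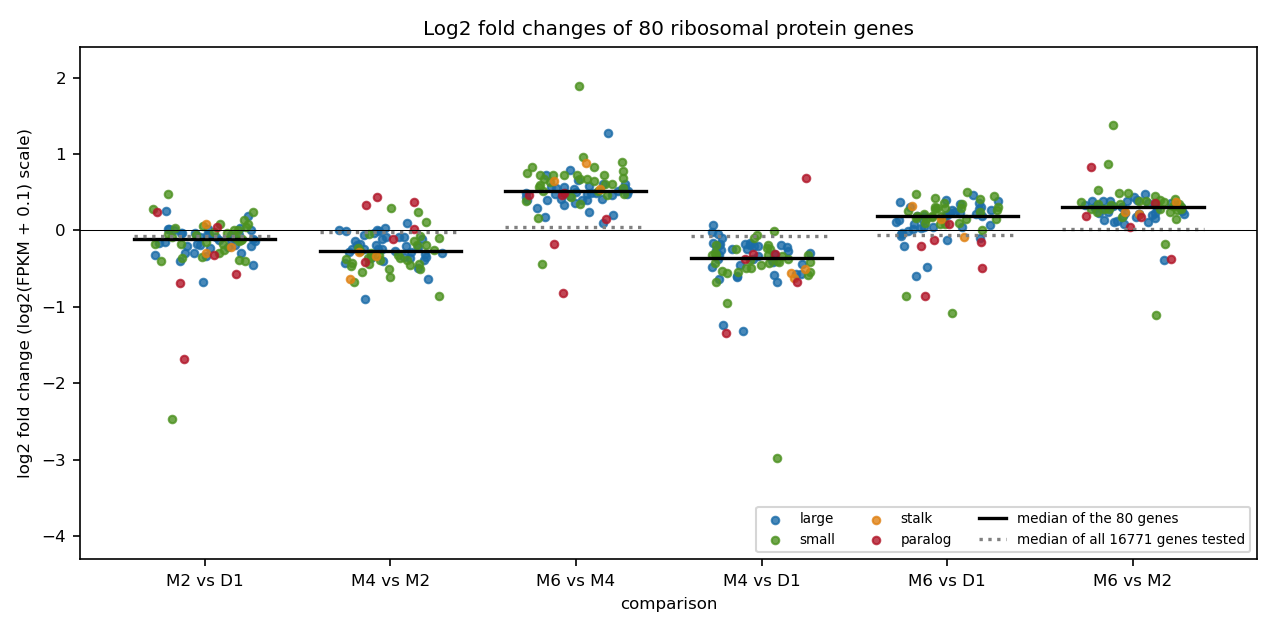
Log2 fold changes of the 80 tested ribosomal protein genes in the 6 comparisons between stages, on the log2(FPKM + 0.1) scale, coloured by subunit. Black lines are the medians of the 80 genes (-0.12, -0.26, 0.52, -0.35, 0.19 and 0.30 from left to right) and dotted grey lines the medians of all 16771 genes tested, which lie between -0.07 and 0.04.

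In M4 vs. D1, which shares the M4 libraries with the comparison above, the genes were on balance lower at M4. The log2 fold change was negative for 78 of 80 members, against 56.3% of all genes, and its median was -0.35 against -0.07. No member was called by limma, against 10 genes in all (0.0596%). At an unadjusted p under 0.05, 12 members were lower, against 6.21% of all genes, and 0 were higher, against 2.50%. Without M4 replicate 3 or D1 replicate 5 the count of 12 was 7 each, without M4 replicate 5 it was 27, and quantile normalization gave 7 with a median of -0.10.

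RPL36 again had the smallest p-value, at 111, 217, 273, 272 and 368 FPKM at D1, against the M4 values above (log2 fold change -1.23, SE 0.34, unadjusted p = 0.00171, limma adjusted p = 0.250). RPLP0 was 192, 195, 252, 192 and 283 FPKM at D1 and 139.7, 128, 100.02, 170.4 and 189.6 FPKM at M4. It was the only member whose groups did not overlap in this direction, as was so for 1.52% of all genes, with a log2 fold change of -0.63 (SE 0.21, limma adjusted p = 0.366). RPL18, a large subunit gene, was -0.68 (SE 0.21, limma adjusted p = 0.315), and RPS2 was -0.96 (SE 0.30, limma adjusted p = 0.343).

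In M2 vs. D1 the median of the members was near that of all genes, and 4 members, 3 of them paralogs, had an unadjusted p under 0.05. The median log2 fold change of the 80 genes was -0.12, against -0.07 over all genes, and 21 of 80 values were positive, against 44.8% of all genes. After quantile normalization the median was 0.16 and 65 of 80 values were positive. The share of all genes in that fit is not given. No member and no gene in all (0%) was called by limma. At an unadjusted p under 0.05, 4 members were lower (RPL22L1, RPS15A, RPL26L1 and RPS27L), against 9.35% of all genes, and 0 were higher, against 6.25%. The count was 1 without D1 replicate 3, D1 replicate 4 or M2 replicate 1, and 2 without D1 replicate 5, M2 replicate 3 or M2 replicate 5. RPS15A had a log2 fold change of -2.47 (SE 1.06), from the values given above.

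RPL22L1, the paralog of RPL22 that can replace it in the large subunit, had the smallest p-value of any member in M2 vs. D1. It lies on chromosome 1 (96121289 to 96125042). Its FPKM was 58.0, 62.5, 62.1, 25.8 and 51.0 at D1, and 6.49, 29.4, 7.37, 20.5 and 29.9 at M2. At M4 it was 15.0, 20.4, 13.5, 23.6 and 28.7, and at M6 it was 29.6, 23.0, 54.3, 25.3 and 16.3. Apart from D1 replicate 4, every D1 library lay above all M2 and M4 libraries, and M6 replicate 3 reached the level of D1.

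The means of RPL22L1 were 51.9 ± 15.3, 18.7 ± 11.4, 20.2 ± 6.24 and 29.7 ± 14.5 FPKM (D1, M2, M4 and M6; SD, n = 5). The log2 fold change against D1 was -1.68 at M2 (SE 0.41, unadjusted p = 0.000617, limma adjusted p = 0.136), -1.34 at M4 (SE 0.41, limma adjusted p = 0.318) and -0.85 at M6 (SE 0.41, limma adjusted p = 0.684). None passed the threshold. When each library was weighted by its quality, RPL22L1 was the only member called, with -1.24 in M2 vs. D1 (limma adjusted p = 0.0301) and -1.35 in M4 vs. D1 (limma adjusted p = 0.0488). That fit called 268 and 91 of all genes. With the mapping rate as a covariate RPL22L1 was not called. Its log2 fold change was then -1.37 in M2 vs. D1 (SE 0.53, limma adjusted p = 0.793). In M4 vs. D1 it was -1.13 with that covariate (SE 0.47, limma adjusted p = 0.541). Over all alternatives the adjusted p ranged from 0.0301 to 0.9997 in M2 vs. D1, the latter without M2 replicates 1 and 3 together, where the log2 fold change was -0.91 (SE 0.35), and from 0.0488 to 0.746 in M4 vs. D1.

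RPL22, like RPL22L1, overlapped between all ages. Its means were 417 ± 129, 364 ± 103, 366 ± 111 and 449 ± 93.8 FPKM (D1, M2, M4 and M6; SD, n = 5), and from D1 to M2 it differed by a log2 fold change of -0.19 (SE 0.29, limma adjusted p = 0.786). RPL22L1 amounted to 14.1% ± 7.06 of the FPKM of RPL22 in D1 libraries. In the later stages this share was 5.28% ± 3.11 (M2), 5.71% ± 1.35 (M4) and 6.38% ± 1.81 (M6; SD, n = 5). The share reached 21.2% in 1 D1 library and 5.09% in another, which lies within the range of the later ages. Over the 20 libraries the genes most alike RPL22L1 were TMEM41B (r = 0.94), DBT (0.93), RAB8B (0.92) and MMADHC (0.90).

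**Figure D5:**
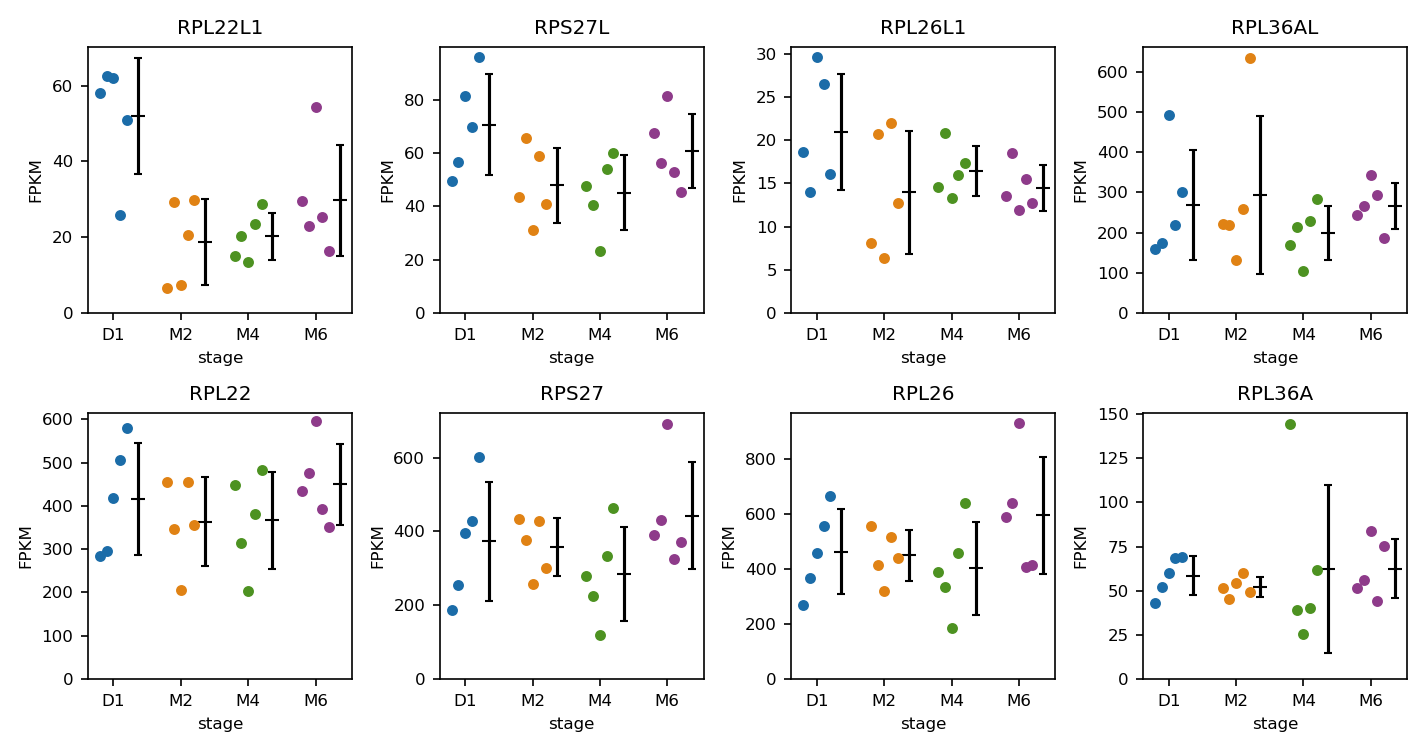
FPKM of 4 paralogs (upper panels) and of the parent gene of each (lower panels) in the 5 libraries of each stage, with the mean ± SD as bars. RPL22L1 has its highest mean at D1 (51.9 FPKM), though the stages overlap for both RPL22L1 and RPL22. RPL36AL is the one paralog above its parent.

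RPS27L, a p53 target related to RPS27, was 49.3, 56.6, 81.4, 69.7 and 96.0 FPKM at D1, and 43.6, 65.7, 31.0, 58.8 and 40.7 FPKM at M2. The stages overlapped, with a log2 fold change of -0.57 (SE 0.26, limma adjusted p = 0.300). RPL26L1, the paralog of RPL26, was 18.6, 14.0, 29.6, 26.4 and 16.1 FPKM at D1, and 8.12, 20.7, 6.33, 21.99 and 12.7 FPKM at M2 (log2 fold change -0.69, SE 0.30, limma adjusted p = 0.275). Replicate 3 was the lowest M2 library for both genes and the next to lowest for RPL22L1.

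RPL36AL was the exception among paralogs, with a mean of 257 FPKM against 58.8 FPKM of RPL36A, the X-linked gene for a nearly identical protein. RPL36AL did not differ detectably between stages, with means of 269 ± 137, 293 ± 196, 199.9 ± 67.2 and 266 ± 57.8 FPKM (D1, M2, M4 and M6; SD, n = 5). RPL36A overlaps another gene, LOC108634303, and reached 144 FPKM in M4 replicate 1. RPL7L1, a factor of ribosome assembly related to RPL7, was low and steady at 7.28 to 18.9 FPKM, against a mean of 619.9 FPKM for RPL7.

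RPL3L, the muscle form of RPL3, was listed at 0 in several libraries and reached 1.64 FPKM in M4 replicate 4, against a mean of 217 FPKM for RPL3. RPL10L, the form known from testis, was above 0 in M2 replicate 4 alone, at 0.101 FPKM, and was the only member too low to be tested. RPL10 had a mean of 183 FPKM.

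The remaining comparisons gave small values. In M4 vs. M2 the median of the members was -0.26 against -0.02 over all genes, with 69 of 80 values negative, against 51.7% of all genes. No member or other gene was called (0%), and 2 members had an unadjusted p under 0.05, both lower (backgrounds 4.72% lower and 3.95% higher). These were RPL36 (log2 fold change -0.89, SE 0.34) and RPS29, of the small subunit (-0.86, SE 0.36; limma adjusted p = 0.545). Without M4 replicate 3 the median was -0.06 and the count 0, and without M4 replicate 5 the count was 13. It was 19, all lower, after quantile normalization, and 0 with library quality weights or without M2 replicates 1 and 3 together.

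In M6 vs. M2 the median was 0.30 against 0.02 over all genes, with 76 of 80 values positive, against 51.9% of all genes. No member or other gene was called (0%). RPS25, a small subunit gene that overlaps CCDC84, was the 1 member with an unadjusted p under 0.05 (backgrounds 3.26% higher and 2.89% lower). It was 267, 240.3, 364, 373 and 504 FPKM at M2 and 708, 667, 1073, 421 and 413 FPKM at M6 (log2 fold change 0.86, SE 0.38, limma adjusted p = 0.746). RPL21 had 0.48 (SE 0.24).

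In M6 vs. D1 the median was 0.19 against -0.05 over all genes, with 63 of 80 values positive, against 44.9% of all genes. Of all genes 1 was called (0.00596%) and no member, and 0 members had an unadjusted p under 0.05 (backgrounds 3.33% higher and 4.08% lower). Quantile normalization gave 11, all higher, and library quality weights gave 6, of which 4 were higher and 2 lower. RPS19 (0.51, SE 0.29) and RPS21 (0.45, SE 0.26) had the smallest p-values after RPL22L1. The means of RPL11 were 455 ± 109 FPKM at D1 and 491 ± 129 FPKM at M6 (SD, n = 5), and those of RPS6 were 439.7 ± 92.2 and 489.8 ± 122 FPKM. In a test of any difference among the 4 stages, 0 members were called, against 1 gene in all (0.00596%), and 8 had an unadjusted p under 0.05, against 10.4% of all genes. The 8 became 24 without M4 replicate 5, 3 without M4 replicate 3, and 4 or 5 without D1 replicates 3, 4 or 5 or M4 replicates 1 or 2.

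RPSA, the laminin receptor and small subunit protein, and FAU, whose product is cleaved to the small subunit protein eS30, had ranges that overlapped at all stages. RPSA had means of 111 ± 22.9, 85.8 ± 23.3, 92.9 ± 24.4 and 120.2 ± 31.6 FPKM (D1, M2, M4 and M6). FAU had 278 ± 77.2, 246 ± 43.8, 202 ± 88.3 and 314 ± 67.9 FPKM in the same order (SD, n = 5).

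Among other genes of translation, and of the proteasome and respiratory chain, 0 were called in any comparison by limma. In M6 vs. M4, where the members had a median of 0.52, 19 other genes with TOP mRNAs had a median of 0.24, with 2 higher at an unadjusted p under 0.05 (EEF1D and RACK1). The medians of the other lists lay between -0.07 and 0.10. These were 77 mitochondrial ribosomal protein genes (3 higher and 2 lower at that p), 36 initiation factors (1 and 1), 12 elongation factors (1 and 1) and 50 assembly and rRNA modification factors (1 and 1). Of 10 genes of RNA polymerase I 0 passed, of 14 genes of mTOR and MYC signalling 0 were higher and 1 lower, of 34 proteasome genes 1 was higher, and of 56 respiratory chain genes 0 passed.

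In M2 vs. D1 the members had a median of -0.12. Proteasome genes had a median of -0.57, with 22 of 34 lower at an unadjusted p under 0.05, and respiratory chain genes -0.56, with 26 of 56. Mitochondrial ribosomal protein genes had -0.44 (23 of 77 lower, 1 higher), initiation factors -0.43 (16 of 36) and assembly factors -0.35 (12 of 50 lower, 2 higher). RNA polymerase I genes had -0.29 (1 of 10), TOP mRNAs -0.28 (5 of 19) and elongation factors -0.18 (3 of 12). Genes of mTOR and MYC signalling had -0.01, with 2 of 14 higher and 0 lower. The members with an unadjusted p under 0.05 were 4 of 80.

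These lower values of the other lists rested in part on M2 replicate 1, which was poor in neuron markers, and M2 replicate 3, which was rich in KLHDC1 (values above). Without both libraries the median was -0.25 for proteasome genes (4 of 34 lower at that p), -0.29 for respiratory chain genes (5 of 56), -0.18 for mitochondrial ribosomal protein genes (3 of 77) and -0.21 for initiation factors (1 of 36). Without M2 replicate 1 alone these counts were 13, 15, 7 and 9, and without M2 replicate 3 alone they were 19, 22, 14 and 8. With the mapping rate as a covariate the medians were -0.20, -0.13, -0.05 and -0.13, against -0.12 for the members. With that covariate and the replicate block the members had -0.43 and proteasome genes -0.16, so the order of the members and these lists depended on the fit, and the differences between lists were not tested. Summed FPKM of 4 oligodendrocyte markers was 2069 ± 1078 at D1 (171 to 2718) and 884 ± 309.8 at M2 (390.5 to 1141; SD, n = 5), and its part in these values was not tested.

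The median of the TOP mRNAs had an r of 0.74 with the median of the members over the 20 libraries, the highest of these lists. It was 0.49 for mitochondrial ribosomal proteins, 0.44 for proteasome genes, 0.44 for elongation factors, 0.42 for respiratory chain genes and -0.37 for mTOR and MYC genes. Each is a description over libraries that share their scaling, and several elongation factors are in the list of TOP mRNAs as well.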

How the data were processed

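Per the methods of the study, the authors removed rRNA, made strand-specific libraries, trimmed reads with fastp, aligned them with HISAT2 2.0.5 to the goat genome ARS1.2 and assembled transcripts with StringTie 1.3.3b. The deposited values are FPKM per gene and library, and they are not counts, so no count model was used. Gene symbols and positions came from the RefSeq annotation of ARS1.2, which gave names to 20610 of 21071 identifiers, and 461 further identifiers had the assembly's own names only. Of the rows sharing a symbol in a list, the highest was used. Since FPKM divides by all fragments of a library, a dominant transcript lowers every other value.

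A gene was tested where 5 or more of the 20 libraries had 0.1 FPKM or more, which held for 16771 genes and 80 of the 81 members. The model was fitted to log2(FPKM + 0.1) by limma 3.58.1 (R 4.3.3), with 4 stages as groups and moderated variances that follow a trend on the mean. P-values were adjusted by Benjamini-Hochberg over all genes tested in each of 6 comparisons and for any difference among stages. A gene was called at an adjusted p under 0.05. Fold changes of genes near 0.1 FPKM are understated on this scale. The fit was tested on simulated data in which each gene was drawn independently. The shared movement of the members was not part of that simulation. Descriptions used Python 3.11.15 with pandas 2.3.3 and numpy 2.4.6, and figures matplotlib 3.10.9.

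The members and lists were chosen with earlier results of these data known. Named are the 3 highest and 3 lowest members by mean, the 3 with the smallest p in each comparison, the 3 most and least variable, all paralogs with their parents, and RPLP0, RPLP1, RPLP2, RPSA, FAU, RPS6, RPL5 and RPL11. Results on some single genes are not reported here. Alternatives changed the pseudocount, filter, scaling, variance model, libraries, weights, replicate block and, as a covariate, the mapping rate in the quality table of the study. Scaling to the median of the members and leaving out pairs of libraries were added after the data were seen. No pair of libraries was a duplicate (highest r 0.96).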

Additional observations from a re-analysis of the deposited data

Results flagged for a closer look

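Each stage of 5 libraries was checked for a library far from the other 4, over the 37 members that the text names by rule, some of which were chosen for a high SD, and over 3 measures summed or taken as a median over the members. Of 157 groups checked 11 had one, where chance gives about 5%, that is 1 in 20 groups. The other members were not checked.

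The ratio of large to small subunit FPKM was 1.38 in M2 replicate 3, below the next value of 1.57. RPS28 was 274 FPKM in M6 replicate 5, against 36.5 FPKM in the next library. RPS15A was 481 FPKM in M2 replicate 4, with 127 FPKM next, and 348 FPKM in M4 replicate 1, with 47.9 FPKM next. RPL36AL was 634 FPKM in M2 replicate 5, with 259 FPKM next. RPS27 was 692 FPKM in M6 replicate 3, with 430.2 FPKM next, in the library that was highest for most members. RPSA was 50.5 FPKM in M4 replicate 3, below the next value of 96.3 FPKM, in the library that was lowest for most members. RPL3L was 1.02 FPKM in M2 replicate 1, 1.64 FPKM in M4 replicate 4 and 0.429 FPKM in M6 replicate 2, with 0.117, 0.0698 and 0.0257 FPKM next. RPL10L was 0.101 FPKM in M2 replicate 4 and listed at 0 in the others.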

How the results depend on the processing

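The count of members called was 0 in all 6 comparisons under each alternative apart from library quality weights, which called 1 member (RPL22L1) in M2 vs. D1, 1 in M4 vs. D1 and 1 for any difference among stages. Those weights called 268, 91 and 170 of all genes, in place of 0, 10 and 1. RPL22L1 changed sign in M4 vs. M2 with the weights (log2 fold change -0.11 in place of 0.34), in the same comparison without M2 replicates 1 and 3 together (-0.43) and in M6 vs. M4 after scaling to the median of the members (-0.0663 in place of 0.49). The median over the members kept its sign in M4 vs. M2, M6 vs. M4, M4 vs. D1 and M6 vs. M2, apart from scaling to that median, which sets it near 0. It changed sign in M2 vs. D1 (-0.43 to 0.16) and in M6 vs. D1 (-0.04 to 0.30), and the cause was not tested. Rescaling to a fixed sum moved the median of all genes in M6 vs. M4 from 0.04 to -0.09, while that of the members moved from 0.52 to 0.39. Leaving out each library in turn gave 8 to 50 members with an unadjusted p under 0.05 in M6 vs. M4, in place of 27, 7 to 27 in M4 vs. D1, in place of 12, and 0 to 5 in M6 vs. M2, in place of 1. The stage shares of FPKM moved by less than 1 SD.

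No sign was seen that replicate numbers pair the goats. The deviations of 30 same-numbered pairs had a median r of -0.01 (-0.25 to 0.43, with 7 over 0.1). Of 20 libraries, 3 correlated best with their own number. Since the libraries also differ in make-up, these correlations cannot exclude a weak pairing. With the replicate block 0 members were called in each comparison, and RPL22L1 in M2 vs. D1 had a limma adjusted p of 0.200. Since the reads behind the FPKM are unknown, counting error could not be given.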
